A study of Mus musculus with 28 samples.

Results

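The Th1 genes described here are 7 genes that mark or drive the T helper 1 (Th1) fate of CD4+ T cells: the transcription factors *Tbx21*, *Eomes* and *Hlx*, the cytokine *Ifng*, the receptor chains *Il12rb1* and *Il12rb2*, and the chemokine receptor *Cxcr3*. They were chosen by name, though with earlier results of these data known, and all 7 were among the 24089 genes of the RNA-seq table. Naïve CD4+ T cells take the Th1 path when the T cell receptor is engaged in the presence of IL-12 and IFN-γ. IL-12 signals through a receptor made of the *Il12rb1* and *Il12rb2* products to STAT4, and this and IFN-γ lead to T-bet, the product of *Tbx21*, which drives *Ifng* and *Cxcr3*. TGF-β and IL-4, the pair of cytokines that gives rise to IL-9-producing Th9 cells, are both known as inhibitors of Th1 differentiation.

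RNA-seq gave 24 libraries, 3 for each of 8 cultures. All mice were taken to be *Tgfbr1* f/f *Ert2-cre*+ on a C57BL/6 background, so the controls would carry the floxed alleles and the inducible Cre as well. They were 8 to 10 weeks old and of both sexes. Mice that had received oil kept *Tgfbr1* (TGF-β receptor I) and are called WT, and mice that had received tamoxifen are called KO. Titles name oil or tamoxifen for the DNase-seq libraries and only WT or KO for the RNA-seq libraries. The paper's text also lists *Tgfbr1* f/f *Cd4-cre*+ mice and does not state which line gave the RNA-seq cells. The *Ert2-cre* is not restricted to T cells, and tamoxifen itself coincides with genotype. Naïve CD4+CD62L+ cells of spleen and lymph nodes, taken with magnetic beads, were stimulated through CD3 and CD28 with no cytokine (control), with TGF-β1, with IL-4 or with both. TGF-β1 was at 2 ng/ml and IL-4 at 10 ng/ml in Th9 cultures, no IL-12 was listed, and the time in culture before sequencing was not stated in the sources used. Libraries are numbered 1 to 3 within a genotype, and the sources used here do not tie a number to a mouse, so the p-values measure the spread between these libraries, which may be technical. DNase-seq gave 4 single libraries, from the control and TGF-β + IL-4 cultures of replicate 3 of either genotype.

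The headings of the RNA-seq table conflicted with read counts that the study lists for 8 of the WT libraries. For each of the 8, the pattern of genes at 0 matched 1 column in 99.8% or more of the genes, and the next best column in no more than 85.8%. That column carried the heading of the library in 2 cases and of another library in 6. Taking the columns from left to right in the order of the library numbers (WT first, then KO, and within each replicate number control, TGF-β, IL-4, TGF-β + IL-4) placed all 8 correctly. Of 22 listed counts of Th1 genes, 22 equalled the reads recovered from the column in library-number order and 8 those in the column as headed. All values below are therefore in library-number order. The order of the other 4 WT columns and of the 12 KO columns could not be checked against counts. Both readings put the same columns in WT and in KO. The median within-culture SD over genes, on the log2 scale, was 0.0895 in library-number order and 0.141 as headed in WT, against 0.108 and 0.112 in KO. This SD thus hardly separates the 2 readings in KO. For IL-4 against control in KO, 241 genes were called in library-number order and 0 as headed. For TGF-β against control in KO the counts were 1 and 0, so that comparison rests on the library numbers alone. Read as headed, 0 members were called in every comparison that is reported below with a call.

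**Figure D1:**
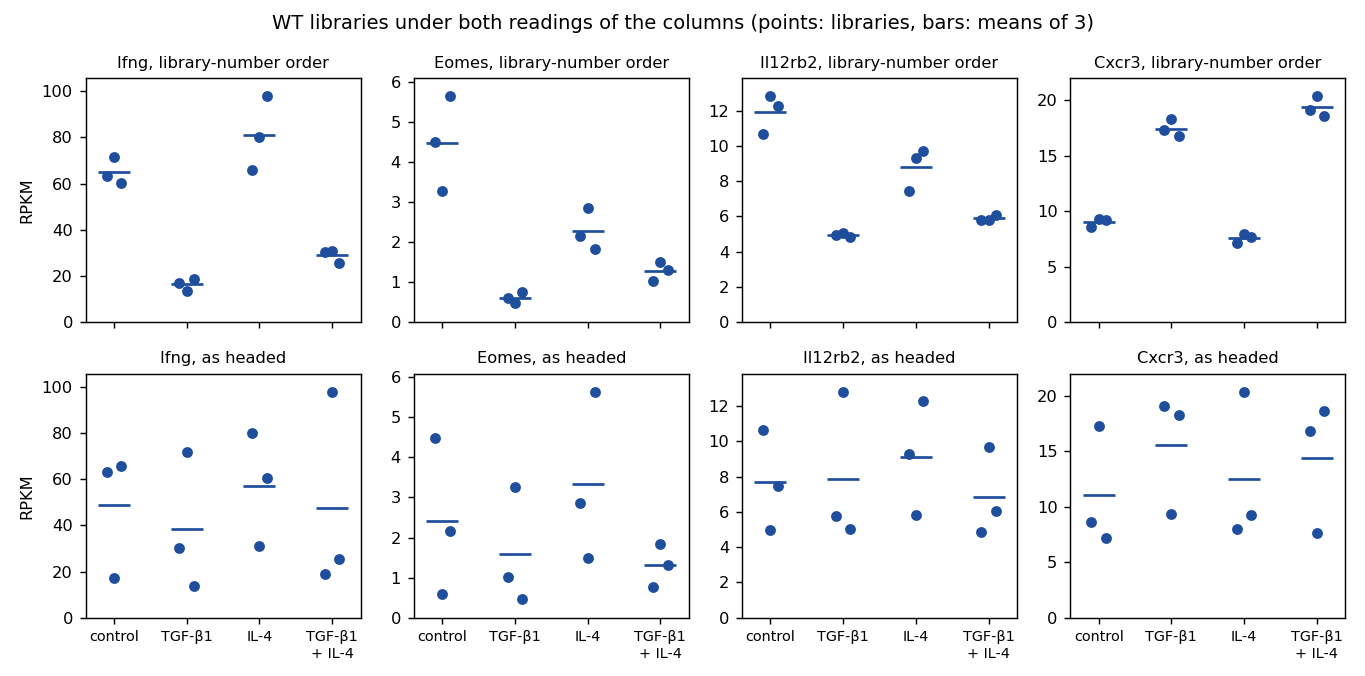
RPKM (y axis, from 0) of *Ifng*, *Eomes*, *Il12rb2* and *Cxcr3* in the 12 WT libraries by culture (x axis), with columns in library-number order (top) and as headed (bottom), points for libraries and bars for means of 3. In the top row *Ifng* lies between 13.6 and 18.8 RPKM with TGF-β and between 60.3 and 71.6 RPKM in control. With IL-4 it spreads more widely, from 65.7 to 97.7 RPKM, and overlaps control. In the bottom row the headings mix low and high columns in every culture.

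Values are RPKM, reads per kilobase of gene after scaling for sequencing depth. Depth, read from the steps between low RPKM values, was 0.598 to 1.20 times that of WT control replicate 1 in WT and 0.575 to 1.02 times in KO. Comparisons used limma on log2(RPKM + 1) with Benjamini-Hochberg adjustment over all genes with a mean of at least 1 RPKM in the libraries compared, so fold changes on that scale understate the change of low genes. A gene was called when it passed both an adjusted p of 0.01 and 1.5-fold. The T cell markers *Cd3e*, *Cd3d*, *Cd4* and *Cd28* summed to 550 to 741 RPKM. Markers of other cells were low but present. Over all libraries the sums were 14.3 to 36.3 RPKM for 2 CD8 T cell genes, 4.13 to 12.2 RPKM for 5 NK cell genes and 8.06 to 34.4 RPKM for 5 B cell genes. For 4 myeloid genes the sum was 0.119 to 17.9 RPKM. In bulk RNA, fewer cells of a type and less RNA per cell cannot be told apart.

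The targeted gene was read first. *Tgfbr1* was at 3.20 ± 0.15 RPKM (SD, n = 3) in WT control and at 2.64 ± 0.37 in KO control, a difference that was not called (log2 fold change, KO minus WT, −0.21 ± 0.09 SE, adjusted p = 0.164, limma). The RPKM of the whole gene, which does not separate the floxed part, thus did not tell the genotypes apart in control medium. With TGF-β it stood at 14.1 ± 0.32 RPKM in WT and at 2.68 ± 0.49 in KO, and this response differed between the genotypes by −1.84 ± 0.14 (log2, adjusted p = 1.81e-06).

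Among the transcription factors, *Tbx21* was high in every culture and moved little, *Eomes* fell to a fraction of its level with TGF-β in WT, and *Hlx* was barely transcribed. *Tbx21* encodes T-bet, the master regulator of Th1 cells (ENSMUSG00000001444.2, minus strand, chr11:96959385-96976645 in mm9). Its RPKM in replicates 1 to 3 was 74.7, 79.4 and 82.5 in WT control, 67.5, 64.4 and 57.9 with TGF-β, 81.7, 83.7 and 83.6 with IL-4, and 66.5, 67.6 and 61.7 with TGF-β + IL-4. Both TGF-β cultures lay below both cultures without TGF-β. The difference was 1.25-fold for TGF-β against control (log2 −0.31 ± 0.07 SE, adjusted p = 0.0139) and 1.21-fold for TGF-β + IL-4 (−0.27 ± 0.06, adjusted p = 0.00455), and neither passed both thresholds. KO control libraries were at 51.3, 50.7 and 44.7 RPKM, all below the 3 WT control libraries, and *Tbx21* was called lower there (log2 −0.68 ± 0.07, 95% interval −0.84 to −0.52, adjusted p = 0.000717). In KO it stood at 64.0, 58.6 and 50.1 RPKM with TGF-β, 66.4, 55.4 and 59.3 with IL-4, and 57.9, 52.0 and 60.7 with both. None of these KO cultures passed the test against KO control.

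A DNase-hypersensitive site (DHS) is a region in which DNase I cuts more than in the surroundings. Of the 6 sites within 20 kb of *Tbx21*, the one strongest in WT control, with its summit at −11711 bp from the start of the gene, was also the only one present in all 4 lists. Its fold enrichment in WT was 8.18 in control and 6.23 with both cytokines, and in KO it was 6.01 and 5.53. The 201 bases around its summit, shown because the site was in every list (chr11:96988256-96988456, minus strand, mm9) follow, with a match to the interferon-γ-activated sequence, TTCNNNGAA, the letters of an element that STAT4 can bind, in capitals.
Tbx21 upstream site: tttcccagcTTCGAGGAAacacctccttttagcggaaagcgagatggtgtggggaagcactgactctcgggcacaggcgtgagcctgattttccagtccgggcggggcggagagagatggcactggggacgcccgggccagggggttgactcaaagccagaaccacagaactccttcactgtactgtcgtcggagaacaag

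*Eomes* encodes eomesodermin, a T-box factor related to T-bet that is best known in CD8 T cells and NK cells (ENSMUSG00000032446.8, plus strand, chr9:118387330-118395250). In WT it was at 4.49, 3.26 and 5.63 RPKM in control, 0.592, 0.478 and 0.763 with TGF-β, 2.16, 2.85 and 1.83 with IL-4, and 1.02, 1.49 and 1.31 with both. The 4 cultures did not overlap, in the order control, IL-4, TGF-β + IL-4, TGF-β. Mean RPKM was 7.30-fold lower with TGF-β than in control (log2 on the RPKM + 1 scale −1.74 ± 0.16, 95% interval −2.10 to −1.38, adjusted p = 0.000166, limma). *Eomes* passed the filter on low values in this comparison only through its control libraries, and with no filter the adjusted p was 0.00147. Without WT replicate 1 it was 0.0144. With TGF-β + IL-4 the mean was 3.50-fold lower (−1.25 ± 0.15, adjusted p = 0.000224). With IL-4 alone it was 1.95-fold lower and missed the threshold (−0.72 ± 0.17, adjusted p = 0.0517), but without WT replicate 2 it was called (−1.01, adjusted p = 0.00893). In KO the 12 libraries lay between 3.11 and 4.06 RPKM in all 4 cultures, above every WT library with TGF-β, IL-4 or both. The largest KO difference from control was −0.17 ± 0.09, with both cytokines (adjusted p = 0.462). Of 3 sites near *Eomes*, 2 were in all 4 lists. One of them lies at the promoter of the neighbouring *Golga4*. The other, 11616 bp downstream of the *Eomes* start, held the only match to the T-box element TCACACC at this locus, in capitals below (chr9:118398846-118399046, plus strand).
Eomes downstream site: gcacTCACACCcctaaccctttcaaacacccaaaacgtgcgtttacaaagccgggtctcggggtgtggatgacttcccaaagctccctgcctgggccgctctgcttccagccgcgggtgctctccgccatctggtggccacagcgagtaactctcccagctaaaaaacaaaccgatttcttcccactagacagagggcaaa

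*Hlx*, a homeobox factor that works with T-bet to raise *Ifng* (ENSMUSG00000039377.6, minus strand, chr1:186551019-186556498), was below 1 RPKM in every library, with 0 to 21 recovered reads, and was left out of all tests. It was at 0.181, 0.0918 and 0.121 RPKM in WT control and at 0.427, 0.256 and 0.289 RPKM with TGF-β + IL-4, from 13, 6 and 9 and from 21, 11 and 15 reads. These groups did not overlap. Tested without the filter on low values, the adjusted p was 0.0263. The KO libraries lay between 0 and 0.156 RPKM. The 3 sites near *Hlx*, 1 of them at its promoter, were in the WT control list and in no other list.

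*Ifng* had the largest change with TGF-β in WT among the 6 tested genes on the log2(RPKM + 1) scale. It encodes interferon-γ, the defining Th1 cytokine (ENSMUSG00000055170.3, plus strand, chr10:117878103-117882948). WT control libraries were at 63.1, 71.6 and 60.3 RPKM, TGF-β libraries at 17.1, 13.6 and 18.8, IL-4 libraries at 65.7, 80.1 and 97.7, and TGF-β + IL-4 libraries at 30.4, 30.9 and 25.5. Control and IL-4 overlapped, and both TGF-β cultures lay below them without overlap. The mean was 3.94-fold lower with TGF-β (log2 −1.92 ± 0.11, 95% interval −2.19 to −1.66, adjusted p = 2.1e-05, limma). With TGF-β + IL-4 it was 2.25-fold lower than in control (−1.14 ± 0.09, adjusted p = 1.39e-05) and 2.81-fold lower than with IL-4 (−1.44 ± 0.13, adjusted p = 3.15e-05). Against TGF-β alone, the culture with both cytokines was 1.75-fold higher (0.78 ± 0.11, adjusted p = 0.0016). That last call was lost without WT replicate 1 (adjusted p = 0.0304).

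In the KO control culture the level of *Ifng* was low. KO control libraries were at 15.5, 10.7 and 9.01 RPKM, a mean 5.54-fold below WT control (log2 −2.40 ± 0.16, 95% interval −2.78 to −2.03, adjusted p = 0.000111). TGF-β libraries of KO were at 18.7, 14.9 and 19.9 RPKM, IL-4 libraries at 27.1, 21.9 and 19.8, and libraries with both at 17.99, 28.6 and 26.3. All IL-4-containing KO libraries lay above the 3 KO controls. The differences of 0.93 ± 0.17 with IL-4 (adjusted p = 0.0116) and 1.00 ± 0.21 with both (adjusted p = 0.0385) missed the threshold. Both were called without KO replicate 1, at 1.01 (adjusted p = 0.00509) and 1.39 (adjusted p = 0.00959). With TGF-β the WT level was 16.5 ± 2.63 RPKM (SD, n = 3) and the KO level 17.8 ± 2.61 RPKM, and these libraries overlapped.

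NK and CD8 T cells also transcribe *Ifng* and *Eomes*, and the genes that mark these cells differed between the same cultures. The summed CD8 genes were at 24.8 to 26.9 RPKM in WT control, 16.6 to 17.3 with TGF-β, 29.9 to 36.3 with IL-4 and 25.3 to 26.7 with both, and at 14.8 to 16.7 RPKM in KO control. In the other KO cultures this sum was 14.3 to 15.2 RPKM with TGF-β, 26.3 to 27.2 with IL-4 and 26.3 to 28.3 with both. The 2 CD8 genes did not change alike. *Cd8a* was at 5.45 to 6.12 RPKM in WT control and 1.14 to 1.32 in KO control. In WT it was at 5.04 to 5.58 RPKM with TGF-β and 8.13 to 8.87 with both. *Cd8b1* was at 19.4 to 21.1 RPKM in WT control and 13.6 to 15.4 in KO control. In WT it was at 11.04 to 12.3 RPKM with TGF-β and 16.4 to 18.4 with both. With IL-4 in WT, *Cd8b1* was at 24.7 to 30.4 RPKM, while *Cd8a* overlapped WT control. The summed NK genes were at 6.01 to 6.39 RPKM in WT control, 4.52 to 5.76 with TGF-β, 8.81 to 12.2 with IL-4, 6.04 to 7.96 with both, and 4.13 to 4.86 in KO control. In the other KO cultures the NK sum was 4.27 to 4.69 RPKM with TGF-β, 4.86 to 6.91 with IL-4 and 5.58 to 10.6 with both. Within the NK list *Klrb1c* was at 0.737 to 0.912 RPKM in WT control and 0.165 to 0.200 with TGF-β. In the same 2 cultures *Ncr1* was at 1.30 to 1.42 and 0.393 to 0.633 RPKM. *Klre1* was at 0.983 to 1.22 and 0.284 to 0.688 RPKM, and *Klrk1* at 1.07 to 1.32 and 0.838 to 1.05. Only *Klrd1* was higher with TGF-β, at 1.59 to 2.04 and 2.34 to 3.69 RPKM. None of these 7 genes was at 0 in any library. Their part in the *Ifng* and *Eomes* results was not tested.

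At the *Ifng* locus, 3 sites were found in WT control and 1 in each other list. The shared one, 17858 bp downstream of the start of the gene, had a fold enrichment of 8.54 in WT control and 5.45 with both cytokines, and of 6.12 and 6.14 in KO. A site in the gene, in an intron, and another 20499 bp downstream of the start were in WT control alone, at 4.53 and 4.44. The shared site (chr10:117895861-117896061, plus strand) is shown with a match to the STAT6-type element, TTC and GAA with 4 bases between them, the spacing that IL-4-activated STAT6 prefers, in capitals.
Ifng downstream site: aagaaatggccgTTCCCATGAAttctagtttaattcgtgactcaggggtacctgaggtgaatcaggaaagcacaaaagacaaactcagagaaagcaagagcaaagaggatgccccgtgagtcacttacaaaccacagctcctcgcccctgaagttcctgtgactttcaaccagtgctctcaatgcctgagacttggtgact

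The receptor chains both fell with TGF-β in WT. *Il12rb1* encodes the chain shared by the receptors of IL-12 and IL-23 (ENSMUSG00000000791.7, plus strand, chr8:73332348-73345323). Its WT libraries were at 80.1, 85.1 and 83.1 RPKM in control, 51.3, 49.0 and 45.6 with TGF-β, 75.8, 76.3 and 81.3 with IL-4, and 52.1, 51.8 and 47.4 with both. The change was 1.70-fold with TGF-β (log2 −0.76 ± 0.05, adjusted p = 5.47e-05, limma), 1.64-fold with both against control (−0.71 ± 0.05, adjusted p = 1.39e-05) and 1.54-fold with both against IL-4 (−0.62 ± 0.05, adjusted p = 2.65e-05). Without WT replicate 3 the last of these was −0.54, under the fold change threshold. All 12 KO libraries lay between 65.7 and 77.8 RPKM, above every WT library with TGF-β.

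*Il12rb2* encodes the chain that recruits STAT4 and limits IL-12 responsiveness (ENSMUSG00000018341.6, minus strand, chr6:67241312-67326182). It was the lower of the pair per length in all libraries. WT control was at 10.7, 12.8 and 12.3 RPKM, TGF-β at 4.95, 5.05 and 4.84, IL-4 at 7.45, 9.30 and 9.70, and both at 5.78, 5.82 and 6.07. The 4 WT cultures did not overlap. *Il12rb2* was 2.41-fold lower with TGF-β (log2 −1.11 ± 0.08, 95% interval −1.29 to −0.94, adjusted p = 4.23e-05) and 2.02-fold lower with both (−0.90 ± 0.08, adjusted p = 2.96e-05), while IL-4 alone missed the threshold (−0.40 ± 0.10, adjusted p = 0.078). KO control was at 4.31, 3.53 and 3.95 RPKM, 3.03-fold below WT control (−1.39 ± 0.09, adjusted p = 0.000106). The other KO libraries were at 5.34, 5.01 and 3.56 with TGF-β, 2.59, 2.86 and 2.19 with IL-4, and 2.86, 4.30 and 2.90 with both. The IL-4 libraries lay below KO control without overlap (−0.48 ± 0.10, adjusted p = 0.0237, not called).

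Of the 7 loci, *Il12rb2* had the most sites, 12, of which WT control had 11, WT with both cytokines 4, and either KO list 6. It is also the longest of the 7 genes, so its window was the widest. The site with the highest fold enrichment in 3 of the lists lies in an intron, 27998 bp from the start, and was in all 4 lists, at 11.1-fold in WT control and 7.83 with both cytokines, and at 5.88 and 5.32 in KO. In KO TGF-β + IL-4 another intronic site, at 57468 bp, was higher (5.64). In the WT control list, 8.29% of all DHSs were as strong or stronger, against 20.7%, 29.5% and 41.2% in the other 3 lists in that order. A site at −2063 bp was in WT control alone, at 4.87-fold. The promoter site at the start was in WT control (4.37-fold) and both KO lists, but not in WT TGF-β + IL-4. The intronic site (chr6:67298084-67298284, minus strand) held none of the 3 motifs searched, and the upstream site (chr6:67328145-67328345, minus strand) held TTCNNNGAA, in capitals. They are shown as the strongest site of the locus in WT control and as one of those found in WT control alone.
Il12rb2 intronic site: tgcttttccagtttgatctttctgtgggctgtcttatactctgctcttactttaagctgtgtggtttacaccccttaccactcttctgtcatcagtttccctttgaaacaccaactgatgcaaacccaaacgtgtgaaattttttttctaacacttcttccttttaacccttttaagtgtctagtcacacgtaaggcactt
Il12rb2 upstream site: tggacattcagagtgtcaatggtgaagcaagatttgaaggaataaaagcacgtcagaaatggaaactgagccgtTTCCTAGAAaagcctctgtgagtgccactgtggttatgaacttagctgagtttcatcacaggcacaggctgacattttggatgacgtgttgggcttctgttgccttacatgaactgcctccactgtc

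*Cxcr3* was the one member that rose with TGF-β. It encodes the receptor of CXCL9, CXCL10 and CXCL11, through which Th1 cells enter inflamed tissue (ENSMUSG00000050232.6, minus strand, chrX:98926874-98929608). WT libraries were at 8.63, 9.32 and 9.25 RPKM in control, 17.3, 18.3 and 16.8 with TGF-β, 7.16, 7.998 and 7.68 with IL-4, and 19.1, 20.4 and 18.6 with both. The TGF-β cultures stood apart above the cultures without it. The rise was 1.93-fold with TGF-β (log2 0.88 ± 0.06, 95% interval 0.74 to 1.01, adjusted p = 4.11e-05, limma), 2.14-fold with both against control (1.02 ± 0.06, adjusted p = 3.91e-06) and 2.55-fold with both against IL-4 (1.24 ± 0.06, adjusted p = 1.46e-06). KO libraries were at 7.56, 8.38 and 7.54 RPKM in control, 8.82, 8.95 and 8.26 with TGF-β, 6.78, 6.72 and 5.99 with IL-4, and 5.84, 8.60 and 5.69 with both, and none of these was called against KO control. Of 2 sites at the locus, the one at −3210 bp from the start was in WT control alone (6.36-fold), and the other in WT control and both KO lists. The WT TGF-β + IL-4 list, from the culture with the highest RNA level, had no site within 20 kb of *Cxcr3*. The upstream site (chrX:98932718-98932918, minus strand) is shown with the T-box element on its reverse strand in capitals.
Cxcr3 upstream site: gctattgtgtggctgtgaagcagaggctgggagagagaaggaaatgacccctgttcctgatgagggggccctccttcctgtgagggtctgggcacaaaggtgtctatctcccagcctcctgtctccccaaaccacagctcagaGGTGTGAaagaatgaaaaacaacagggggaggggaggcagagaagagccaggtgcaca

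**Figure D2:**
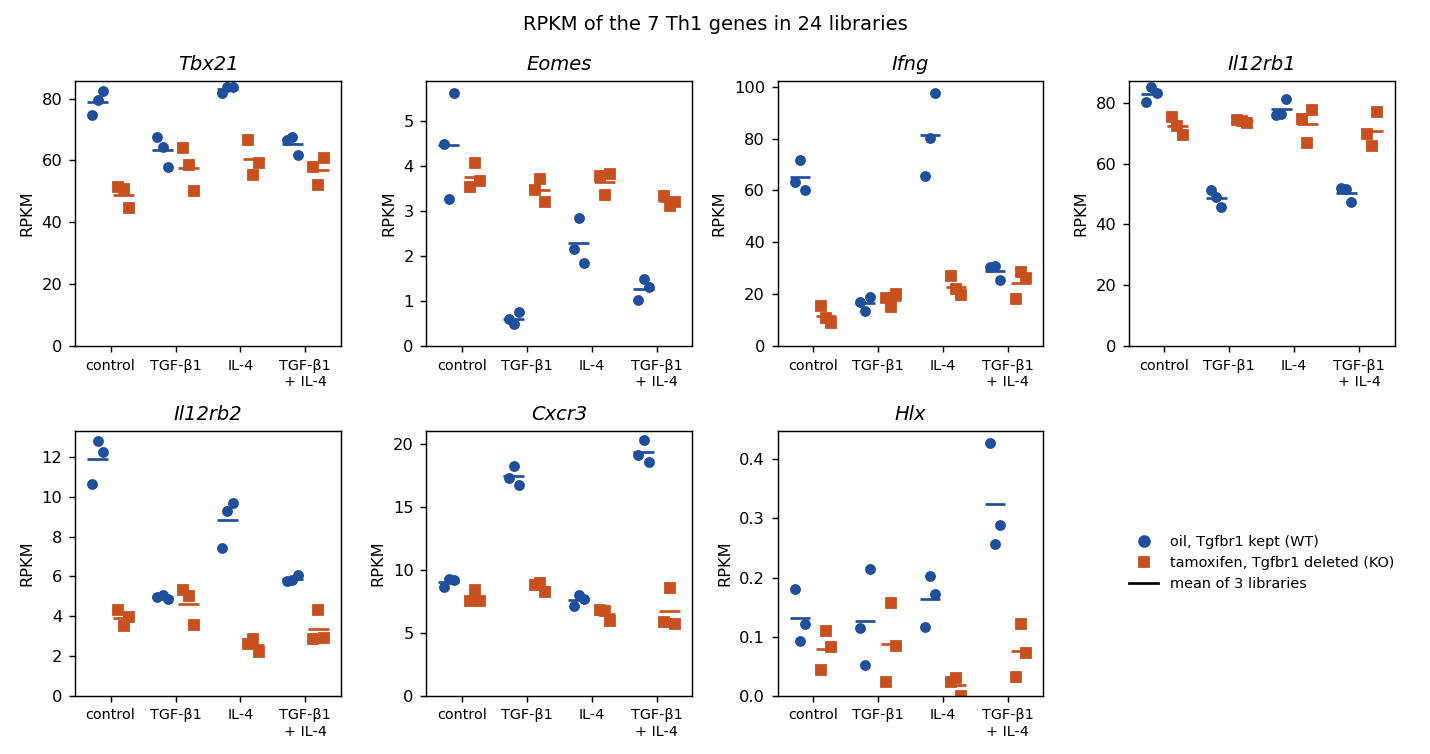
RPKM (y axis, from 0, a separate scale for each gene) of the 7 Th1 genes by culture (x axis), with circles for WT and squares for KO libraries and bars for means of 3. WT *Eomes*, *Ifng*, *Il12rb1* and *Il12rb2* are lower and WT *Cxcr3* is higher in both TGF-β cultures, KO *Ifng* control libraries lie between 9.01 and 15.5 RPKM, and *Hlx* stays under 0.5 RPKM.

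Comparisons that share a control culture are not independent of each other. With TGF-β in WT, 5 of the 6 members tested were called, *Ifng*, *Eomes*, *Il12rb2* and *Il12rb1* lower and *Cxcr3* higher, where 5.71% of 9726 genes tested were called, 2.28% lower and 3.42% higher. The median change over the 6 members was −0.94, against 0.01 over all genes tested. *Eomes* entered that test only through its control libraries, and the count is a description. Without WT replicate 1, 4 members were called, and 294 genes in all in place of 555. With TGF-β + IL-4 against control the same 5 members were called in the same directions (9.27% of 9816 genes, 2.84% lower and 6.43% higher), with a median of −0.80. Against IL-4, TGF-β + IL-4 lowered *Ifng* and *Il12rb1* and raised *Cxcr3*, 3 of 6 (9.28% of all genes, 3.21% lower and 6.06% higher), and leaving out single replicates gave 2 to 4. Against TGF-β it raised *Ifng* alone among 5 tested (3.03% of all genes, 2.53% higher and 0.508% lower), *Eomes* being under the filter there. IL-4 in WT called 0 of 6 members (1.29% of 9680 genes), while 4 of 6 had an unadjusted p under 0.05, namely *Eomes*, *Il12rb2*, *Cxcr3* and *Ifng*, as had 1686 of the 9680 genes. In KO cells 0 of 6 were called with TGF-β (0.0105% of 9563 genes, or 1 gene), 0 with IL-4 (2.51%) and 0 with both (1.92%). The 95% intervals of the KO response to TGF-β were −0.28 to 0.10 for *Eomes*, −0.09 to 0.15 for *Il12rb1*, −0.11 to 0.48 for *Il12rb2*, −0.03 to 0.30 for *Cxcr3* and 0.18 to 0.98 for *Ifng*. The unadjusted p was under 0.05 for *Tbx21* and *Ifng* with TGF-β (246 of 9563 genes), for *Tbx21*, *Ifng*, *Il12rb2* and *Cxcr3* with IL-4 (1981 of 9600 genes), and for *Tbx21* and *Ifng* with both (1430 of 9653 genes).

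**Figure D3:**
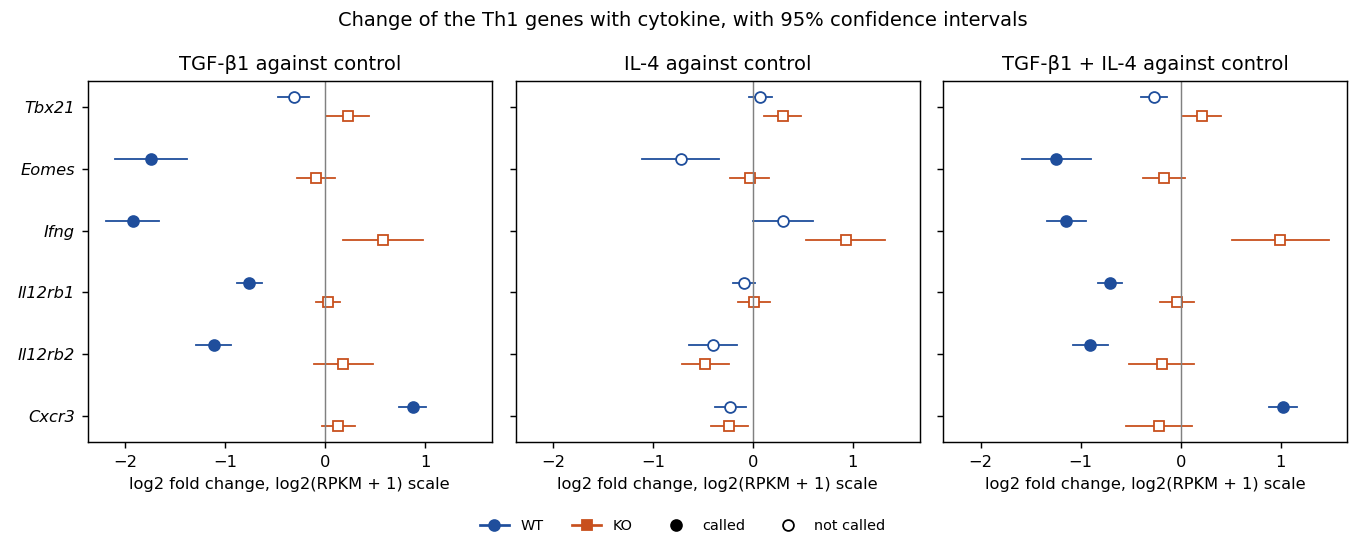
Log2 fold change against the control culture of the same genotype (x axis, log2(RPKM + 1) scale) of the 6 tested Th1 genes (y axis) with 95% confidence intervals from limma, circles for WT, squares for KO, filled where called. With TGF-β and with TGF-β + IL-4 the WT symbols of *Eomes*, *Ifng*, *Il12rb1* and *Il12rb2* lie left of 0 and *Cxcr3* right of it, and no KO symbol is filled.

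Whether the responses differed between the genotypes was tested directly, as the response in KO minus that in WT. For TGF-β, 5 of 6 members were called (4.71% of 9678 genes, 1.86% higher and 2.85% lower). The difference was 2.51 ± 0.24 for *Ifng* (adjusted p = 1.71e-05), 1.65 ± 0.19 for *Eomes* (adjusted p = 7.44e-05), 1.30 ± 0.16 for *Il12rb2* (adjusted p = 0.000146), 0.79 ± 0.07 for *Il12rb1* (adjusted p = 1.23e-05) and −0.74 ± 0.09 for *Cxcr3* (adjusted p = 9.14e-05). *Tbx21* was at 0.54 ± 0.12 (adjusted p = 0.0132). These 5 calls held without each replicate in turn. For TGF-β + IL-4, 4 of 6 were called (4.18% of 9756 genes, 1.4% higher and 2.78% lower), *Ifng* at 2.14 ± 0.26, *Eomes* at 1.07 ± 0.19, *Il12rb1* at 0.67 ± 0.09 and *Cxcr3* at −1.23 ± 0.16. *Eomes* was lost there with no filter on low values (adjusted p = 0.0101) and without KO replicate 1 or 3 or WT replicate 1 or 3 (adjusted p from 0.0123 to 0.0282), and *Il12rb1* fell under the fold change threshold without KO replicate 3 (0.58), which left 2 called. For IL-4, 0 of 6 were called (0.0414% of 9668 genes), with unadjusted p under 0.05 for *Eomes*, *Ifng* and *Tbx21*, and for 794 of the 9668 genes.

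The level of some of these genes also differed between the genotypes in the stimulated cultures without added cytokine. In control, *Ifng*, *Il12rb2* and *Tbx21* were lower in KO, 3 of 6 tested (2.46% of 9644 genes, 1.82% lower and 0.633% higher), while *Eomes*, *Il12rb1* and *Cxcr3* were not called. With TGF-β + IL-4 the picture differed. *Eomes* was 2.52-fold higher in KO (0.90 ± 0.10, adjusted p = 0.000538), *Cxcr3* was 2.89-fold lower (−1.42 ± 0.14, adjusted p = 0.000233) and *Il12rb2* was 1.76-fold lower (−0.68 ± 0.13, adjusted p = 0.00583), 3 of 6 (8.44% of 9851 genes, 2.71% higher and 5.73% lower). The *Il12rb2* call was lost without any single replicate except KO replicate 2 (adjusted p from 0.0215 to 0.0295). *Ifng* did not differ in that culture by this test (−0.26 ± 0.16, 95% interval −0.64 to 0.11). Tamoxifen and genotype cannot be told apart in these comparisons.

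In WT, the fall with TGF-β was smaller when IL-4 was present for 2 members. The interaction was 1.22 ± 0.22 for *Eomes* (adjusted p = 0.00493) and 0.61 ± 0.12 for *Il12rb2* (adjusted p = 0.00977), 2 of 6 (1.77% of 9794 genes, 1.42% higher and 0.347% lower). Both calls were lost without WT replicate 1 (adjusted p = 0.114 and 0.0651) and without WT replicate 3 (0.0644 and 0.0994), and *Il12rb2* without WT replicate 2 (0.0546). Over all genes the 173 calls of this interaction became 0, 91 and 32 without WT replicates 1, 2 and 3.

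Across the 8 cultures each gene had its own order of mean RPKM. *Tbx21* ran from WT IL-4 (83.0) to KO control (48.9), and only WT control against WT TGF-β + IL-4 and KO TGF-β + IL-4 against KO control were neighbours that did not overlap. *Ifng* had the same highest and lowest cultures, 81.2 and 11.7 RPKM, with a single gap between WT control and WT TGF-β + IL-4. For *Eomes*, WT control and all 4 KO cultures overlapped with their neighbours, and WT IL-4, WT TGF-β + IL-4 and WT TGF-β followed below, each apart. *Cxcr3* was led by WT TGF-β + IL-4 (19.4) and WT TGF-β (17.5), and the other 6 cultures overlapped with their neighbours between 9.07 and 6.50. *Il12rb1* was highest in WT control (82.8) and WT IL-4 (77.8), the KO cultures stood between 73.8 and 70.7, and WT TGF-β + IL-4 (50.4) and WT TGF-β (48.6) came last. *Il12rb2* fell into steps of WT control (11.9), WT IL-4 (8.82), WT TGF-β + IL-4 (5.89) and WT TGF-β (4.95), each apart from the one before, and of the KO cultures below, WT TGF-β overlapped with KO TGF-β alone. As a description over 24 libraries that share cultures, the members differed in which others they followed. *Ifng* went with *Tbx21* (Pearson r = 0.87) and *Il12rb2* (0.75), and *Eomes* with *Il12rb1* (0.85), with *Cxcr3* running against both *Eomes* (−0.80) and *Il12rb1* (−0.86). Among 9726 genes, those most like *Cxcr3* by r over the 24 libraries included *Ubash3a* (0.978) and *Wasf2* (0.970). *Eomes* was most like *Stat4* (0.940), with *Rab43* (0.915) also among the 3 highest, and *Ifng* most like *Bhlhe40* (0.928), *Mpzl3* (0.895) and *Tnfrsf18* (0.890). For *Il12rb1* these were *Sik1* (0.952), *Psmb8* (0.929) and *Prf1* (0.920), for *Il12rb2* *Klf6* (0.903), *Il22* (0.891) and *Crem* (0.886), and for *Tbx21* *Bst2* (0.905), *Slc16a3* (0.881) and *Tbkbp1* (0.881).

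Other genes of the Th1 programme were read from lists. With TGF-β in WT, 5.71% of all 9726 genes tested were called, 2.28% lower and 3.42% higher. Of 11 tested genes of IL-12, IL-18, IL-27 and IFN-γ receptors and signalling, TGF-β in WT lowered *Stat4*, the transducer of IL-12 (4.50 to 6.10 RPKM against 23.8 to 27.9 in control, log2 −2.12 ± 0.10) and left 9 without a call. *Il18r1*, a chain of the IL-18 receptor, was called higher (0.90 ± 0.08), but at 0.450 RPKM in control and 1.71 with TGF-β it entered the test only through the TGF-β libraries. *Jak1* and the IFN-γ receptor chains were among the 9. Of 5 tested partner factors, *Bhlhe40*, which supports IFN-γ production, was lower (−0.83 ± 0.09) and 4, *Runx3* among them, were not called. Of 11 tested effector genes, 5 were lower, the granule genes *Gzmb* (−3.15 ± 0.10) and *Prf1* (−1.84 ± 0.08), the chemokines *Ccl3* (−1.89 ± 0.08) and *Ccl4* (−1.32 ± 0.05), and the death ligand *Fasl* (−1.07 ± 0.07). *Lta*, lymphotoxin-α, was higher (0.92 ± 0.05), and is named after its values were seen as the only one in that direction. Median changes were 0.07, −0.01 and −0.57 for the 3 lists, against 0.01 over all genes. These granule and chemokine genes are also transcribed by CD8 T and NK cells, whose marker levels are given above.

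**Figure D4:**
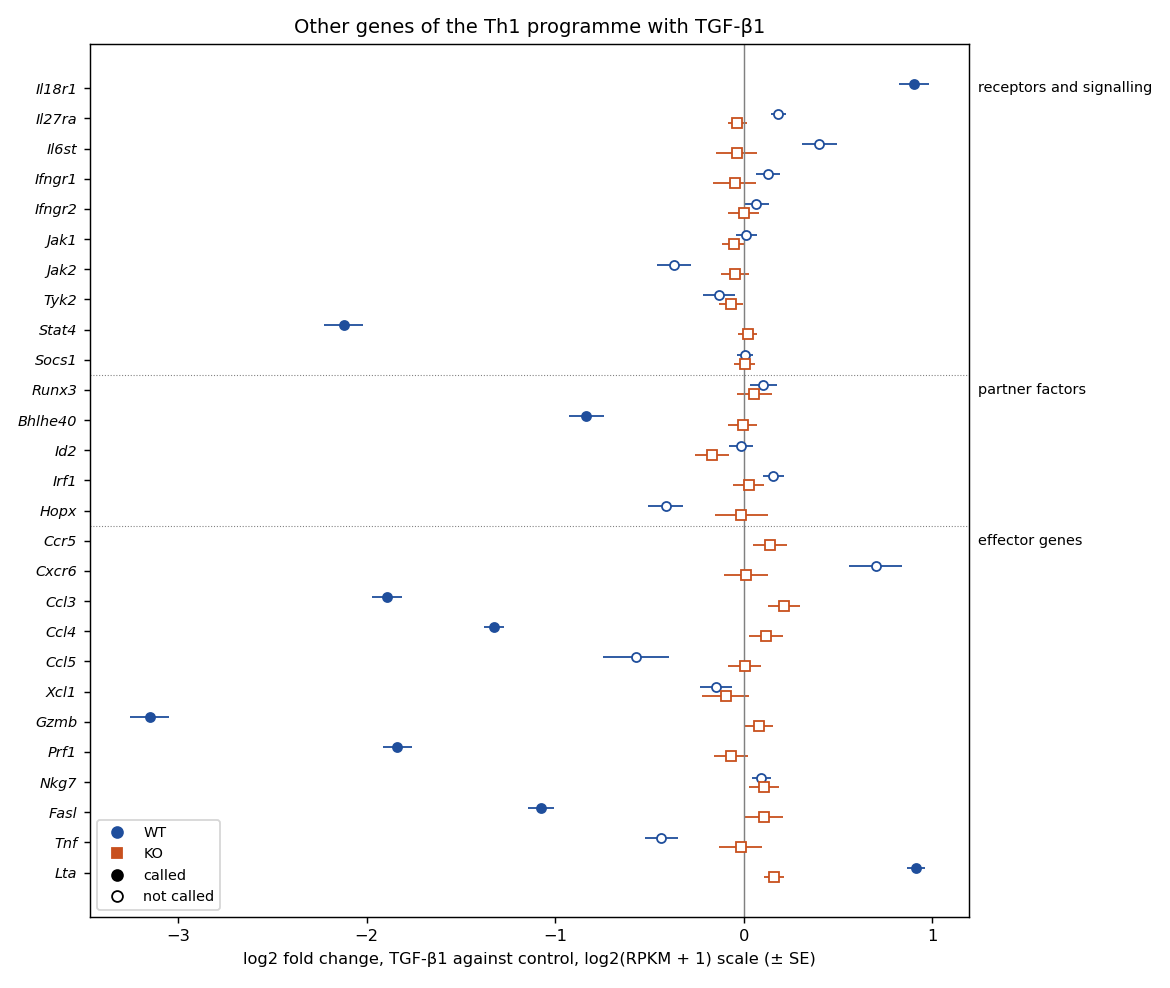
Log2 fold change of TGF-β against control (x axis, log2(RPKM + 1) scale, bars are SE) of other Th1 genes (y axis), a selection of those that passed the filter on low values, circles for WT, squares for KO, filled where called. *Gzmb*, *Stat4*, *Ccl3* and *Prf1* lie furthest left in WT, at −3.15, −2.12, −1.89 and −1.84, and the KO symbols gather around 0 with none filled.

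In KO, TGF-β called 0 of 10 signalling genes, 0 of 5 partner factors and 0 of 12 effector genes. Of all 9563 genes tested there, 1 was called (0.0105%). The KO minus WT difference of the TGF-β response was called for *Stat4* (2.14 ± 0.12), *Bhlhe40* (0.83 ± 0.13), *Gzmb* (3.23 ± 0.14), *Ccl3* (2.10 ± 0.13), *Prf1* (1.77 ± 0.12), *Ccl4* (1.44 ± 0.11) and *Fasl* (1.18 ± 0.13). *Lta* was called the other way (−0.75 ± 0.07) and is again named after its values were seen. IL-4 gave another set. In WT it raised *Socs1*, a brake on cytokine signalling (0.82 ± 0.05), and lowered *Lta* (−1.11 ± 0.06), *Ccl3* (−0.64 ± 0.06) and *Ccl4* (−0.63 ± 0.05). These were 1 of 10 signalling genes and 3 of 12 effector genes tested, where 1.29% of all 9680 genes were called. In KO, IL-4 lowered 6 of 11 effector genes, led by *Lta* (−1.46 ± 0.07) and *Xcl1* (−0.90 ± 0.10), and raised *Socs1* (1.61 ± 0.06) and *Ifngr2* (0.67 ± 0.08). Of all 9600 genes tested for IL-4 in KO, 2.51% were called in any direction. With both cytokines in WT, *Gzmb* (−2.12 ± 0.10), *Ccl3* (−2.02 ± 0.06), *Prf1* (−1.68 ± 0.08), *Ccl4* (−1.43 ± 0.06) and *Stat4* (−1.31 ± 0.09) were lower. *Cxcr6* (1.17 ± 0.10), *Socs1* (0.89 ± 0.05), *Il6st* (0.72 ± 0.09) and *Ifngr2* (0.65 ± 0.07) were higher. Of 10 signalling genes tested there 3 were higher and 1 lower, and of 11 effector genes 1 was higher and 5 lower. Of all 9816 genes, 6.43% were called higher and 2.84% lower. In control cultures, KO cells had less *Nkg7* (−1.39 ± 0.05), *Lta* (−1.27 ± 0.06), *Gzmb* (−1.14 ± 0.11), *Ccl3* (−0.86 ± 0.09), *Ccl4* (−0.62 ± 0.09), *Socs1* (−1.19 ± 0.05), *Runx3* (−0.75 ± 0.08) and *Bhlhe40* (−0.75 ± 0.08) than WT. These were 1 of 10 signalling genes, 2 of 5 partner factors and 5 of 12 effector genes tested, and none was called higher. Of all 9644 genes tested there, 1.82% were called lower and only 0.633% higher.

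Genes of the other helper lineages were read in the same comparisons. With TGF-β in WT, *Foxp3*, the regulatory T cell factor (3.28 ± 0.10) and *Il9* (2.07 ± 0.10) were higher and *Gata3*, the Th2 factor (−0.93 ± 0.08), was lower. Of 8 tested genes of this list, 5 were called, against 5.71% of all 9726 genes. *Maf* was also called higher (1.28 ± 0.08), but at 0.426 RPKM in control and 2.47 with TGF-β it passed the filter through the TGF-β libraries alone. *Foxp3* also rose in KO with TGF-β (1.09 ± 0.09, adjusted p = 0.00892), the one gene called in that comparison, and 0 genes were called there without any 1 of the KO replicates. *Gata3* rose with IL-4 in both genotypes, by 1.72 ± 0.07 in WT and 2.78 ± 0.09 in KO, in which no Th1 member was called.

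Across the 7 loci, each taken with 20 kb on either side, the 4 lists held 39 separate sites, of which 13 were in all 4 lists, 11 in WT control alone and 1 in WT TGF-β + IL-4 alone. WT control had 36 of them, KO control 24, KO TGF-β + IL-4 21 and WT TGF-β + IL-4 19. At *Il12rb1*, 7 of 10 sites were in all lists, its own promoter included, and at *Eomes* 2 of 3. Of the *Il12rb1* sites, 4 lie at promoters of the neighbours *Mast3* and *Arrdc2*. The lists differ in length, with 44298, 33665, 27145 and 33880 DHSs in the same order, and carry no read counts, so their depth is unknown. Of the WT control DHSs, 68.1% in the whole list and 17 of 36 (47.2%) at the Th1 loci were overlapped in WT TGF-β + IL-4. For KO control the shares were 69.2% and 66.7%, and for KO TGF-β + IL-4 57.2% and 55.6%. When each list was cut to its 27145 strongest DHSs, the counts at the 7 loci were 22, 23, 21 and 18. With 1 library per condition none of these differences has a replicate check.

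**Figure D5:**
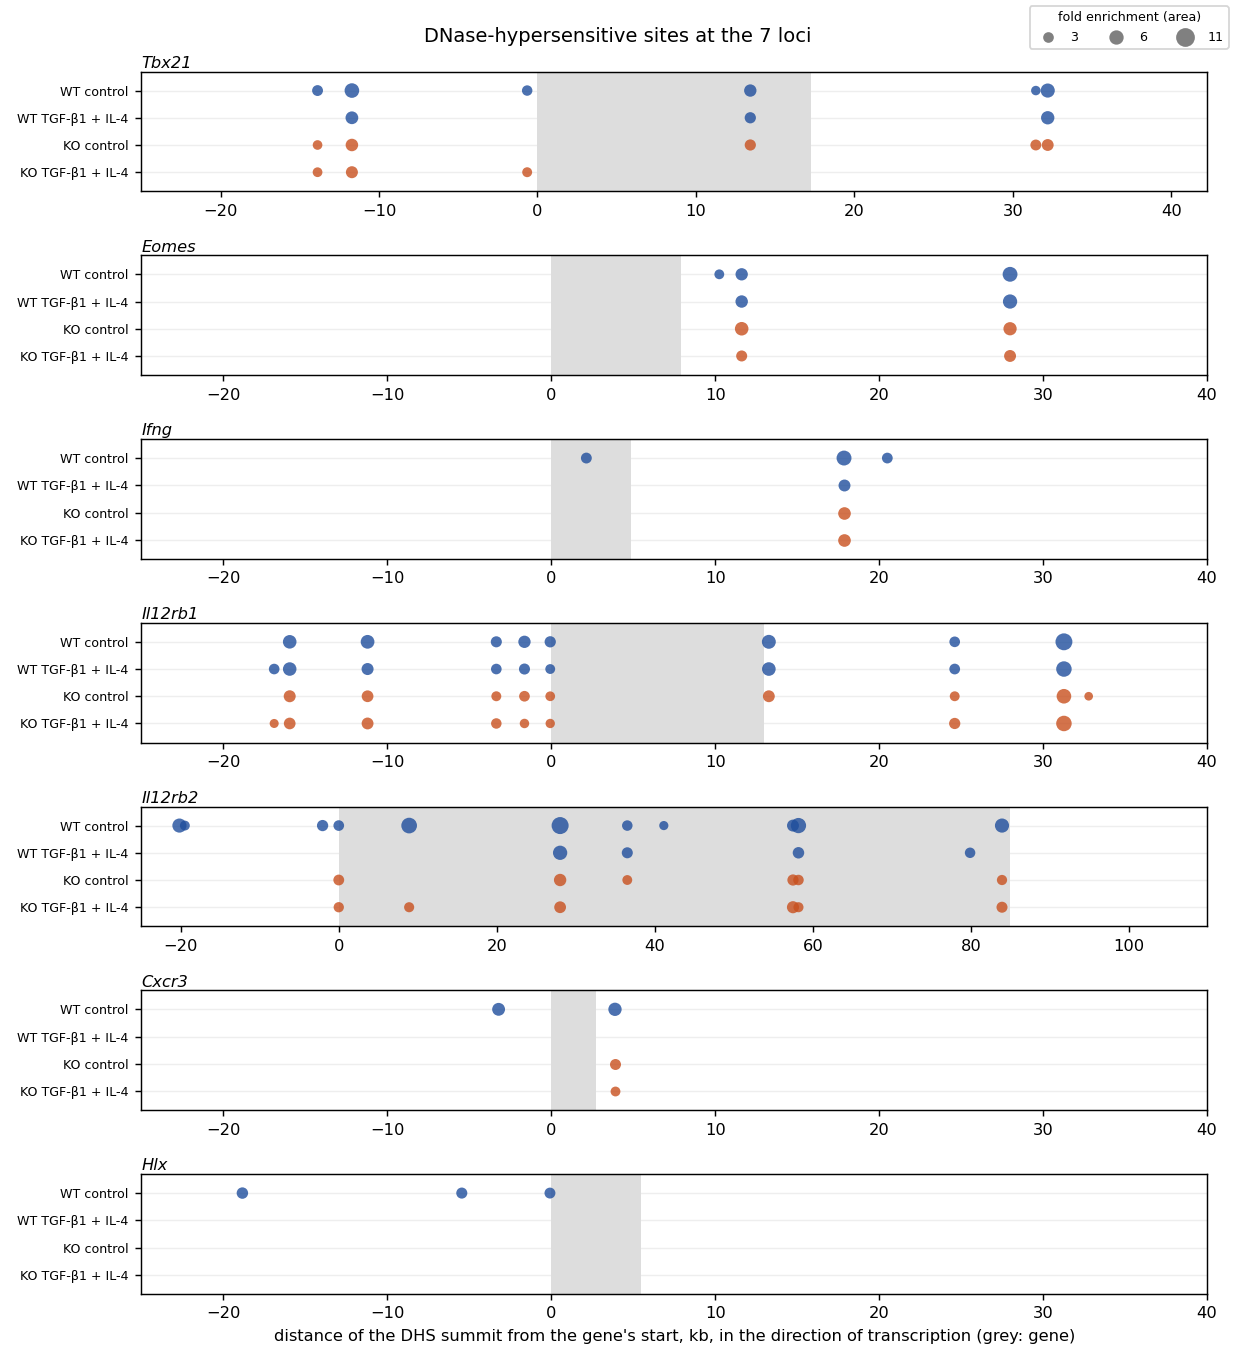
Position of DHS summits relative to the start of each Th1 gene (x axis, kb, in the direction of transcription, grey for the gene) in each of the 4 lists (rows), with dot area in proportion to fold enrichment. The *Il12rb2* row of WT control holds 11 dots against 4 in WT TGF-β + IL-4, *Ifng* has 3 against 1, and *Hlx* has dots in WT control alone. The WT control list is the longest of the 4, with 44298 DHSs against 33880 in WT TGF-β + IL-4.

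Motifs were searched on both strands within 100 bp of the summits. TTCNNNGAA was found at 4 of the 39 sites (10.3%), 1 at *Tbx21* and 3 at *Il12rb2*, where 7.30% of all WT control DHSs held it. The STAT6-type element was found at 2 sites (5.13%, against 5.22% of all), 1 of them at the *Arrdc2* promoter, and TCACACC at 2 (5.13%, against 3.56%). The first of these elements has 3 bases between TTC and GAA and the other 4, and matches can share letters. Shares this close to those of all DHSs are a description of the windows.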

How the data were processed

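RNA was measured in 24 libraries and open chromatin in 4. The authors deposited RPKM values of 24089 genes in 1 table, made from reads aligned to mm9, and MACS2 peak lists of DHSs with a fold enrichment (a ratio to the local background) and −log10 p and q values per DHS. Per the labels Bowtie2 aligned the reads. Duplicate and poorly mapped reads were discarded by the authors, which can lower genes with near copies and highly expressed genes. Versions are not given in the sources used here. The deposited score column was not used. Total depth is unknown for both assays; relative depth and whole reads were recovered from the steps between low RPKM values. Listed read counts of 8 WT libraries served only to identify columns, and the columns were read in library-number order because the headings conflict with those counts.

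Members and gene lists were chosen with earlier results of these data known. log2(RPKM + 1) of genes with a mean of at least 1 RPKM was fitted in limma 3.58.1 (R 4.3.3) with the libraries of the cultures compared, with Benjamini-Hochberg adjustment over all genes tested, and called at an adjusted p under 0.01 and over 1.5-fold. Interactions are KO minus WT. The fits were tested on simulated data. All 7 members are named, up to 5 called genes of each list by size of change, and for each member the 3 genes of highest Pearson r, and some results of these are not reported here. The GENCODE vM1 annotation gave gene positions and the mm9 genome sequences. DHSs were counted within 20 kb of each gene, and overlap meant at least 1 shared base. Alternatives were another pseudocount (0.1), no filter, median ratio scaling, 1 fit of all libraries, a replicate block, the columns as headed, the 8 identified libraries, and each replicate left out. Python 3.11.15 with pandas 2.3.3, numpy 2.4.6, scipy 1.17.1 and matplotlib 3.10.9 was used for the rest.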

Additional observations from a re-analysis of the deposited data

Results flagged for a closer look

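The responses of 5 Th1 genes and of *Tgfbr1* to TGF-β differed between KO and WT in the direct test of the difference (log2, KO minus WT). The values were 2.51 for *Ifng*, 1.65 for *Eomes*, 1.30 for *Il12rb2*, 0.79 for *Il12rb1*, −0.74 for *Cxcr3* and −1.84 for *Tgfbr1*. For TGF-β + IL-4 the differences were 2.14 for *Ifng*, 1.07 for *Eomes*, 0.67 for *Il12rb1*, −1.23 for *Cxcr3* and −1.83 for *Tgfbr1*. For *Ifng* and *Il12rb2* the WT and KO control levels were themselves apart, and the part of that in these differences was not tested. In WT, the TGF-β response differed with and without IL-4 by 1.22 for *Eomes* and 0.61 for *Il12rb2*.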

How the results depend on the processing

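With columns as headed, 0 members were called in each of the 9 comparisons that had a call in library-number order, and values turned for *Ifng* (−0.049) and *Il12rb2* (−0.050) in the KO minus WT response to TGF-β and for *Eomes* (−0.45) and *Il12rb2* (−0.34) in the TGF-β by IL-4 interaction in WT. Of 340 single-gene values under all alternatives, 282 kept direction and call, 54 lost the call and 4 turned, and 31 of those lost or turned were with columns as headed. Without the filter on low values 0 members were called for TGF-β + IL-4 against TGF-β and 0 for the interaction in WT. In 1 fit of all libraries 1 member was called for WT IL-4, 1 for KO IL-4, 1 for KO TGF-β + IL-4 and 1 for the interaction in WT, and in the 8 identified libraries 1 for WT IL-4 and 1 for that interaction. Leaving out single replicates gave 4 to 5 members for TGF-β in WT, 0 to 1 for IL-4, 5 for both, 2 to 4 for both against IL-4, 0 to 1 for both against TGF-β, 0 to 1 each for KO IL-4 and KO TGF-β + IL-4, 3 for KO against WT in control, 2 to 3 in TGF-β + IL-4, 5 and 2 to 4 for the KO minus WT responses to TGF-β and TGF-β + IL-4, and 0 to 1 for the interaction in WT. Same-numbered libraries of a genotype share only a number: their deviations from the culture means correlated by −0.05 to 0.16, 0.05 to 0.55 and −0.09 to 0.48 for WT numbers 1 to 3 and by 0.10 to 0.32, −0.13 to 0.41 and −0.29 to 0.34 for KO. Of the 4 libraries of a number, 1, 4 and 4 in WT and 4, 3 and 2 in KO were closest on average to their own number. With the replicate block, which joins libraries by number and in KO against WT joins libraries of different mice, 1 member was called for KO IL-4 against control, 2 for KO against WT in TGF-β + IL-4 and 3 for the KO minus WT response to TGF-β + IL-4, and it changed no other call of a member. Over all genes, 0 to 7 were called in any comparison with columns as headed. Other counts that moved over 1.5 times were the following. Calls for TGF-β in WT went from 555 to 294 without WT replicate 1. For WT IL-4 they went from 125 to 83 with no filter, 12 without WT replicate 1 and 73 without WT replicate 2. For TGF-β + IL-4 against TGF-β they went from 299 to 194 with no filter and to 167, 452 and 143 without WT replicates 1, 2 and 3. For KO IL-4 they went from 241 to 154 with no filter and 121 without KO replicate 1. For KO TGF-β + IL-4 they went from 185 to 99 with no filter, 278 in 1 fit of all libraries, 88 with the block, 32 without KO replicate 1 and 37 without KO replicate 3. For the KO minus WT response to TGF-β + IL-4 they went from 408 to 678 without KO replicate 2 and to 261, 271 and 268 without WT replicates 1, 2 and 3. For the interaction in WT they went from 173 to 106 with no filter and to 0, 91 and 32 without WT replicates 1, 2 and 3. The 8 identified libraries gave the counts without WT replicate 2. The 1 gene of KO TGF-β and the 4 of the KO minus WT response to IL-4 ranged from 0 to 6 and from 0 to 11. The cause was not tested in any of these. Of the DHS counts, the equal-length lists gave 22 for WT control. Windows of 5 kb gave 21, 10, 13 and 12, and windows of 50 kb 63, 38, 46 and 38, for the control and TGF-β + IL-4 lists of WT and then of KO. Unknown depth limits every statement that a DHS is not in a list, and 3 libraries a culture limit all tests.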
